A study of Mus musculus with 24 samples.

Results

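The 10 genes described here encode the parts of the machinery that licenses, opens and copies replication origins. They were fixed by name: the hexamer genes Mcm2, Mcm3, Mcm4, Mcm5, Mcm6 and Mcm7, the loading and activation genes Cdc6, Cdc45 and Mcm10, and the sliding clamp gene Pcna. All 10 were found among the 38019 gene symbols measured, all 10 passed the filter on low values in every fit, and each gene had 1 row in every library.

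Total RNA of mouse limb buds was sequenced to compare embryos with and without loss of the U11 small nuclear RNA, which recognises the 5′ splice site of the rare minor introns. Mutant (Mut) embryos were U11flx/flx::Prrx1-Cre+ and WT embryos were U11flx/flx::Prrx1-Cre-, all of strain C57/Bl6, so the floxed U11 alleles were shared by Mut and WT. Hindlimb (HL) and forelimb (FL) buds were sampled at embryonic day E11.5 and at E10.5. The 24 libraries form 8 groups of 3. Prrx1-Cre acts in limb mesenchyme, and the surface ectoderm, blood, vessels and muscle precursors of a bud descend from other lineages. The labels do not say which embryos gave which library or whether buds were pooled, so p-values measure only how far these libraries scatter, which may be technical.

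Before S phase, the origin recognition complex, Cdc6 and Cdt1 load the hexamer of Mcm2 to Mcm7 around DNA as an inactive double ring. At the start of S phase, Cdc45 and the GINS complex join each hexamer to form the active helicase, and Mcm10 takes part in that activation. Pcna is the ring-shaped clamp that holds DNA polymerases on the template. Transcription of many of these genes is controlled by E2F factors and is high in proliferating progenitors such as those of the early limb bud.

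Values are TPM as deposited, a measure of transcripts per transcript length and library, after each library was multiplied by a factor that set its median over 3518 genes to a common value, and they are called rescaled TPM below. The factor was needed because nuclear protein-coding genes held only 13.6% to 22.9% of the TPM at E11.5 and 14.9% to 32.8% at E10.5. Only symbols matched to the GENCODE M21 annotation, 36217 of 38019, could be counted as coding, so these shares may be too low. Read depth cannot be read from TPM, and counting error is therefore unknown. Rnu11, the gene of U11, was at 135 to 237 rescaled TPM in E11.5 FL Mut libraries against 1253 to 1344 in E11.5 FL WT libraries, and at 337 to 420 in E11.5 HL Mut libraries against 922 to 2087 in E11.5 HL WT libraries. At E10.5 it was at 164 to 267 in HL Mut libraries against 427 to 716 in HL WT libraries, and at 94.2 to 482 in FL Mut libraries against 251 to 1063 in FL WT libraries, where the groups overlapped. The overlap came from E10.5 FL Mut replicate 3, which also held the hindlimb genes Hoxc10 (3.91) and Pitx1 (1.53), and from E10.5 FL WT replicate 1, where the forelimb gene Tbx5 was at 2.25 against 7.47 and 10.1 in the other two libraries of its group. The mesenchymal marker Prrx1 was at 17.2 to 66.3 rescaled TPM in all 24 libraries.

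The promoter windows of Mcm5, Cdc6 and Mcm6 are shown because Cdc6 and Mcm5 carried the clearest stage differences below, while the paralogous Mcm6 did not show them. Each is a RefSeq window of 300 bases on GRCm38.p6 that ends 50 bases past the annotated start, read 5′ to 3′ on the gene's strand, and capitals mark TTTNNCGC, the core of the E2F motif, and CCAAT, the motif of NF-Y, on either strand.
Mcm5 (chr8:75109259-75109558, plus strand): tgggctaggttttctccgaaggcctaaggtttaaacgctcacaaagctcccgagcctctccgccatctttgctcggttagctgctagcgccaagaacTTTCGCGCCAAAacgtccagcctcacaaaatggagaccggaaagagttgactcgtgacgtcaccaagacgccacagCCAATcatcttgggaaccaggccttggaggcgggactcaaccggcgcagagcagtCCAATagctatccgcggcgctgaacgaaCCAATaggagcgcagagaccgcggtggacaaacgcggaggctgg
Cdc6 (chr11:98907901-98908200, plus strand): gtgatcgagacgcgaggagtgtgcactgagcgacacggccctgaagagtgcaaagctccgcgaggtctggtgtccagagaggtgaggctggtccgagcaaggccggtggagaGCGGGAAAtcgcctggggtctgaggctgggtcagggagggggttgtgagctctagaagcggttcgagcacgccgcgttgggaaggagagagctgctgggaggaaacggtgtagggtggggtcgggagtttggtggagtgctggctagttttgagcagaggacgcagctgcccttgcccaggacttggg
Mcm6 (chr1:128359656-128359955, minus strand): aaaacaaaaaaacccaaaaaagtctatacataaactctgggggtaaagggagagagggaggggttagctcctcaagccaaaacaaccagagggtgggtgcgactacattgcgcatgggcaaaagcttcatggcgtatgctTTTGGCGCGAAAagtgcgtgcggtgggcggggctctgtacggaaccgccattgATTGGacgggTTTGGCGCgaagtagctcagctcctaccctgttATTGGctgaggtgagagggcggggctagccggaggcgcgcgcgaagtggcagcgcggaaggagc

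Windows were found for 9 of the 10 genes, with 2 windows for Mcm7, and Mcm4 had no entry. TTTNNCGC was present in 5 of the 9 genes (Mcm3, Mcm5, Mcm6, Mcm7 and Cdc6), against 5.17% of the 32851 RefSeq promoter windows of that length. CCAAT was present in 8 of the 9 genes, Cdc6 being the exception, against 37.4% of all windows. In Mcm5 the matches to TTTNNCGC began at positions -153 and -149 from the annotated start (0 being that start), on opposite strands, so that they overlap in a run of 12 bases. Mcm6 held a similar overlapping run at -110 and -106 and a further match at -47. The only match in Cdc6 lay at -138 on the other strand. A match is a description of these letters and not of binding. The part of these motifs in the stage differences was not tested.

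The 10 genes spanned more than a 10-fold range of level in every group, and their order was nearly fixed. TPM is a value per transcript length, so levels can be set side by side between genes. Pcna was the highest in all 8 groups, Mcm7 the next and Mcm6 the third, and the ranges of these 3 genes did not overlap in any group except for Mcm6, which overlapped its next lower gene in 1 group. Over the 24 libraries Pcna lay between 132 and 221 rescaled TPM, Mcm7 between 57.8 and 84.2, and Mcm6 between 43.6 and 57.9. Mcm6 varied least, its highest library being 1.33 times its lowest, and Cdc6 varied most, at 3.91 times.

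The hexamer subunits, which stand in equal number in the assembled ring, differed in RNA level. The highest subunit mean was 2.52 to 2.85 times the lowest in the 8 groups. Mcm7 was always the highest. The lowest was Mcm5 in all 4 groups at E11.5, and Mcm4 or Mcm2 in the 4 groups at E10.5. Mcm5 thus stood in rank 7 of the 10 genes at E11.5 and in rank 4 at E10.5, while no other gene moved by more than 2 ranks over all groups. Mcm2 (23.3 to 37.1), Mcm3 (25.7 to 40.6) and Mcm4 (20.0 to 33.4 rescaled TPM) lay close together, and neighbours among them overlapped in most groups. The 3 loading and activation genes were lowest: Mcm10 lay between 11.1 and 20.4, Cdc45 between 11.7 and 17.3, and Cdc6 between 3.85 and 15.05 rescaled TPM.

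**Figure D1:**
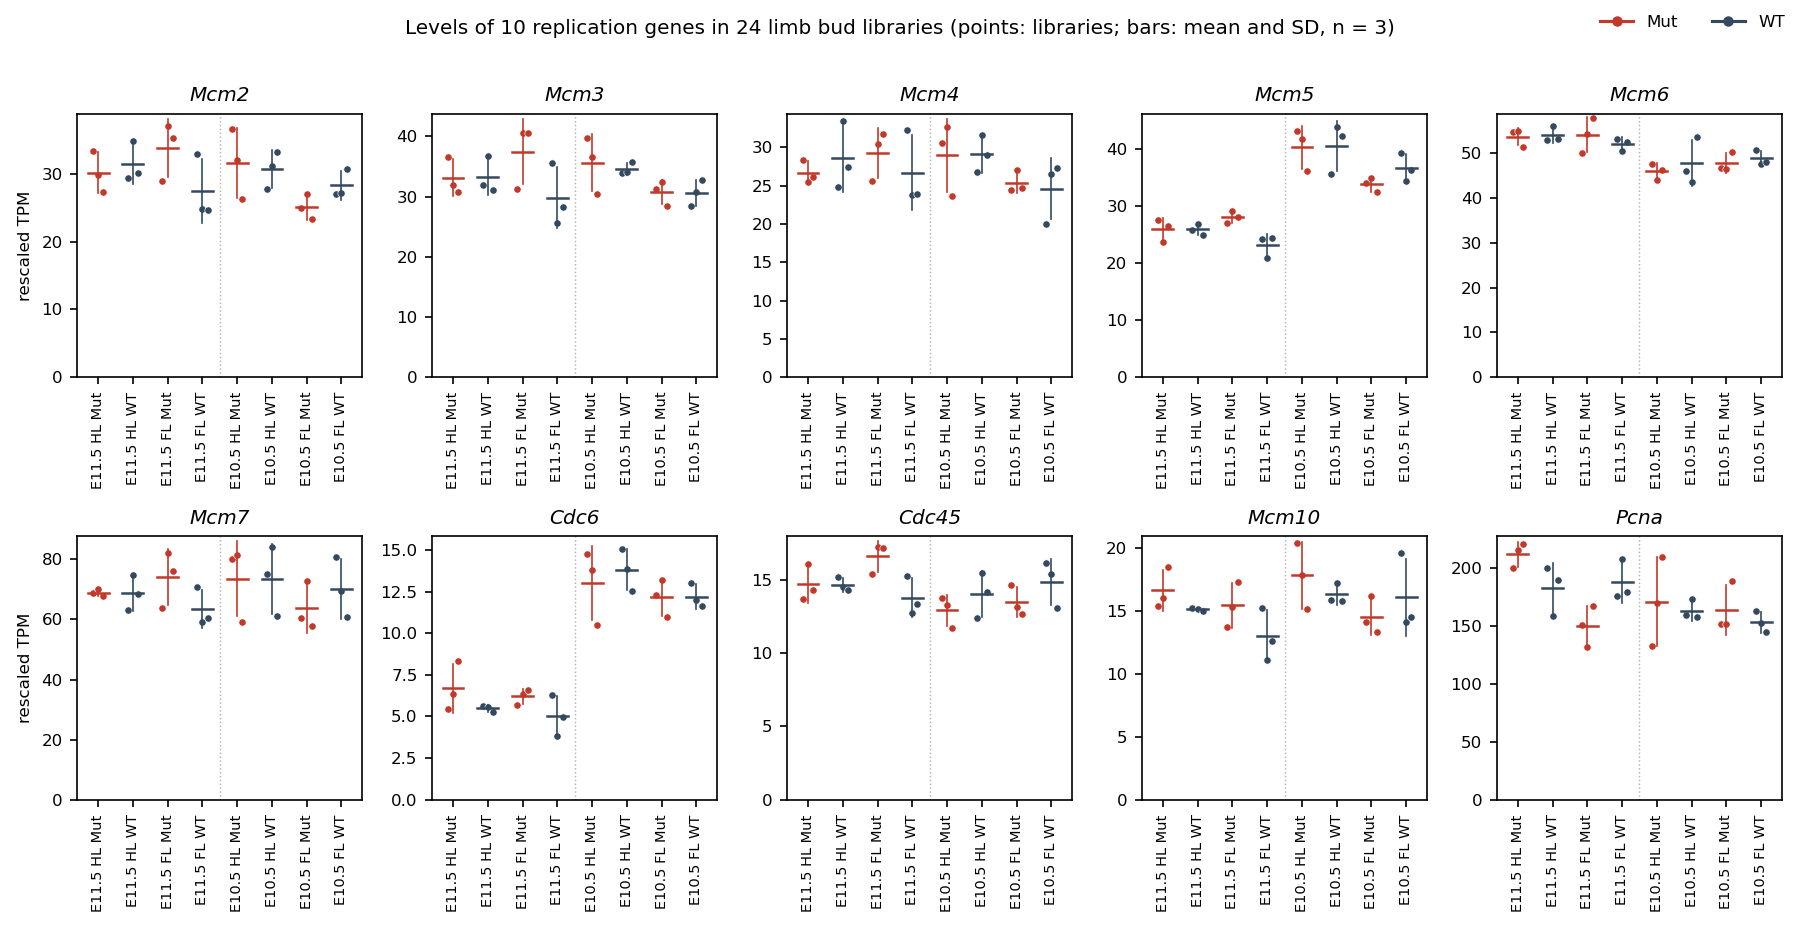
Rescaled TPM of each of the 10 genes in the 8 groups; points are libraries and bars the mean with SD (n = 3), and each panel has its own axis from 0. Mcm5 at 20.8 to 29.0 and Cdc6 at 3.85 to 8.30 rescaled TPM lay at E11.5 below every E10.5 library, at 32.3 to 43.8 and 10.48 to 15.05. Within single limb and genotype comparisons, 45.2% to 53.2% of all genes showed no overlap between stages.

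Cdc6 and Mcm5 were the genes that differed between stages in each limb and genotype, both lower at E11.5. The E11.5 level of Cdc6 was 0.397 to 0.515 of the E10.5 level, and that of Mcm5 was 0.631 to 0.830, from group means. Of the 10 genes, 2 fell and 2 rose in FL Mut, 2 fell and 1 rose in HL Mut, and 2 fell with no rise in FL WT and in HL WT (limma on log2(rescaled TPM + 1), Benjamini-Hochberg adjusted p under 0.05 over 12118 genes). Among all genes tested, the higher and lower calls made up 18.7% and 17.6% in FL Mut, 18.5% and 17.8% in HL Mut, 23.3% and 16.8% in FL WT, and 23.8% and 18.2% in HL WT. The share of the 10 genes that changed was thus near or below that of all genes, and the stage result concerns single genes. The labels state a trimming of 3 nt for the E10.5 reads and give no such step for E11.5, so stage and a difference in read processing cannot be told apart. In whole buds, fewer cells of a type and less RNA per cell cannot be told apart either.

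Cdc6, the ATPase that loads the hexamer, was the member with the greatest stage difference. At E11.5 it was at 5.44, 6.33 and 8.30 rescaled TPM in HL Mut, 5.61, 5.59 and 5.25 in HL WT, 5.68, 6.34 and 6.60 in FL Mut, and 6.27, 3.85 and 4.997 in FL WT. At E10.5 it was at 14.8, 13.8 and 10.48 in HL Mut, 15.05, 13.8 and 12.6 in HL WT, 12.3, 13.2 and 10.999 in FL Mut, and 13.02, 11.97 and 11.6 in FL WT. Every E11.5 library lay below every E10.5 library, the closest being 8.30 in E11.5 HL Mut replicate 3 and 10.48 in E10.5 HL Mut replicate 3. Within the 4 comparisons taken singly, 45.2% to 53.2% of all genes showed no overlap between stages. The share of all genes separated over all groups together was not computed. The log2 difference was -0.87 ± 0.15 (SE) in FL Mut (adjusted p = 0.000363), -0.87 ± 0.15 in HL Mut (adjusted p = 0.000250), -1.15 ± 0.15 in FL WT (adjusted p = 2.69e-05) and -1.19 ± 0.15 in HL WT (adjusted p = 1.22e-05, limma). The difference between Mut and WT in this stage effect was 0.28 ± 0.21 in FL (95% interval -0.15 to 0.71) and 0.32 ± 0.21 in HL (-0.11 to 0.75), with adjusted p of 0.576 and 1.00 (limma). On the deposited scale Cdc6 fell in HL Mut by 1.64, in FL WT by 1.54 and in HL WT by 1.77 on the log2 scale, and in FL Mut it had -0.65 ± 0.31, which did not pass (adjusted p = 0.176, limma).

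Mcm5, a hexamer subunit at the gate through which DNA enters the ring, was next. At E11.5 it was at 27.6, 23.7 and 26.4 rescaled TPM in HL Mut, 25.8, 26.9 and 24.9 in HL WT, 27.1, 29.0 and 28.0 in FL Mut, and 24.2, 20.8 and 24.3 in FL WT. At E10.5 it was at 43.1, 41.7 and 36.0 in HL Mut, 35.5, 43.8 and 42.2 in HL WT, 34.0, 34.9 and 32.3 in FL Mut, and 39.2, 34.3 and 36.2 in FL WT. As with Cdc6, no E11.5 library reached the lowest E10.5 library. The narrowest gap was in FL Mut, with 29.0 as the highest E11.5 library and 32.3 as the lowest at E10.5. In the 4 comparisons taken singly, 45.2% to 53.2% of all genes showed no overlap, and the share over all groups together was not computed. The log2 difference was -0.62 ± 0.10 in HL Mut (adjusted p = 0.000129), -0.64 ± 0.10 in FL WT (adjusted p = 9.47e-05), -0.62 ± 0.10 in HL WT (adjusted p = 9.24e-05) and -0.26 ± 0.10 in FL Mut (adjusted p = 0.0393, limma). The FL Mut call did not hold without any 1 of the 6 libraries of that comparison (adjusted p up to 0.107, limma), and on the deposited scale the value was -0.02 (adjusted p = 0.966), so Mcm5 fell in 3 of the 4 comparisons under every setting tried and in FL Mut under some. The stage effect in FL Mut minus that in FL WT was 0.38 ± 0.13 (95% interval 0.10 to 0.66), which did not pass adjustment (adjusted p = 0.262, limma).

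The other 8 genes did not move together between stages. In FL Mut, Mcm2, a hexamer subunit, rose by 0.41 ± 0.13 (limma adjusted p = 0.0238), with 28.9, 37.1 and 35.3 rescaled TPM at E11.5 against 25.0, 27.1 and 23.3 at E10.5. Cdc45 rose there by 0.28 ± 0.10 (limma adjusted p = 0.0364), with 15.4, 17.3 and 17.2 at E11.5 against 14.7, 13.1 and 12.7 at E10.5. In HL Mut, Mcm6 rose by 0.22 ± 0.08 (adjusted p = 0.0409), with 54.8, 54.9 and 51.5 at E11.5 against 47.6, 44.0 and 46.2 at E10.5 (limma). The groups did not overlap in these 3 cases, as in 53.2% of all genes in FL Mut and 52.6% in HL Mut. The calls were narrow: leaving out 1 library ended those of Mcm2 and Cdc45 in 4 of 6 cases each, among them E10.5 FL Mut replicate 3 and E11.5 FL Mut replicates 2 and 3 for both genes, and that of Mcm6 in 5 of 6. Likewise, without E10.5 FL Mut replicate 3 and E10.5 FL WT replicate 1 the adjusted p was 0.0767 for Mcm2 and 0.0971 for Cdc45. On the deposited scale none of the 3 passed as a rise, and Mcm6 in HL Mut turned to -0.62.

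The remaining genes gave values that did not pass in any stage comparison. Mcm3, Mcm4 and Mcm7, further hexamer subunits, ranged from -0.14 to 0.27 on the log2 scale over the 4 comparisons. Mcm10 ranged from -0.28 in FL WT to 0.08 in FL Mut, and Pcna from -0.12 in FL Mut to 0.33 in HL Mut (limma adjusted p from 0.0766 upward). The 95% interval of Pcna in HL Mut was 0.03 to 0.64, and those of Mcm7 reached from -0.45 to 0.52 over the 4 comparisons, so these data do not set its change in a narrow range.

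The scale bears on the stage direction of several genes. On the deposited scale Mcm2, Mcm4, Mcm6, Cdc45 and Pcna changed sign in at least 1 stage comparison, and Mcm3, Mcm5, Mcm7, Mcm10 and Cdc6 kept their sign in all 4. The median of all genes in E11.5 minus E10.5 was 0.02, 0.03, 0.07 and 0.07 on the rescaled values in FL Mut, HL Mut, FL WT and HL WT. On the deposited scale it was 0.18, -0.61, -0.27 and -0.42. Relative to that median, Cdc6 and Mcm5 were lower in all 4 comparisons on both scales. The rescaling multiplies a library by a factor and so shifts all its genes nearly alike. A position relative to the median is therefore nearly fixed between the scales, and its agreement is no separate check. Without rescaling, 10 of the 10 genes were called lower in HL Mut and 0 of the 10 in FL Mut. The split of all genes moved too: on the deposited scale 820 were called higher and 200 lower in FL Mut, 169 and 6140 in HL Mut, 223 and 2500 in FL WT, and 270 and 4011 in HL WT. On the rescaled values the higher and lower calls were 2267 and 2136 in FL Mut, 2241 and 2153 in HL Mut, 2821 and 2030 in FL WT, and 2888 and 2207 in HL WT.

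**Figure D2:**
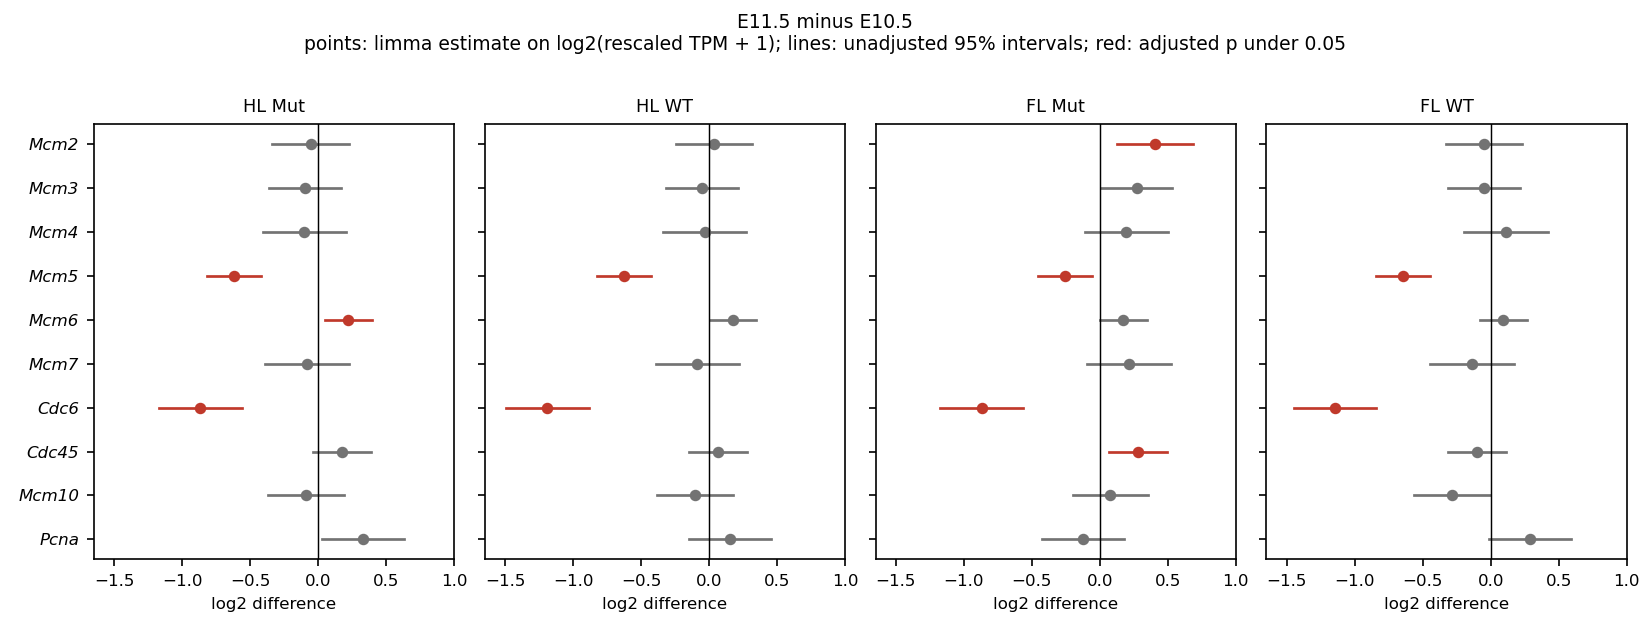
Log2 difference, E11.5 minus E10.5, of each of the 10 genes on rescaled TPM, 1 panel per limb and genotype; points are limma estimates with 95% intervals and red points passed an adjusted p under 0.05. Cdc6 (-0.87 to -1.19) and Mcm5 (-0.26 to -0.64) lie left of 0 in every panel; on the deposited scale their FL Mut values did not pass, and the rise of Mcm6 in HL Mut turned to -0.62.

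The other genes of DNA replication were taken from 60 listed symbols in 10 groups by function, all of which were tested. Between stages, 21 fell and 5 rose in FL Mut, 21 fell and 5 rose in HL Mut, 22 fell and 11 rose in FL WT, and 22 fell and 3 rose in HL WT (limma, adjusted p under 0.05). Of all genes tested, 17.6% fell and 18.7% rose in FL Mut, 17.8% and 18.5% in HL Mut, 16.8% and 23.3% in FL WT, and 18.2% and 23.8% in HL WT. The medians of the 60 genes were -0.13, -0.01, 0.05 and -0.04, against 0.02, 0.03, 0.07 and 0.07 for all genes. The same 15 genes fell in all 4 comparisons, 1 rose in all 4, 20 changed in none, and 0 were called in both directions. The shares of all genes called in all 4 comparisons or in none are not given. These joint counts therefore describe the listed genes and do not set them apart from other genes. The number that rose moved with single libraries: it was 0 in FL Mut without E11.5 FL Mut replicate 3, 10 in HL Mut without E10.5 HL Mut replicate 3, 6 in FL WT without E11.5 FL WT replicate 2, and 6 in HL WT without E10.5 HL WT replicate 1. On the deposited scale all 15 fell in HL Mut, FL WT and HL WT and none passed in FL Mut. On that scale 0 of the 60 genes were called higher in any comparison. All 15 lay below the median of all genes on both scales. As they were chosen by their falls on the rescaled values, that position was fixed in advance and adds no support. Of the 15, Tipin, Mtbp, Clspn, Gins1 and Atad5 each lost a call in at least 1 comparison when 1 library was left out, as given with their values.

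In origin recognition, Orc1, the ATPase subunit of the origin recognition complex that is closest in sequence to Cdc6, fell by 0.64 to 0.75 on the log2 scale, with means of 3.15 to 3.41 rescaled TPM at E11.5 against 5.81 to 6.29 at E10.5. On the rescaled values its partner Orc4 rose in 3 of the 4 comparisons, so the subunits of 1 complex did not move together there. On the deposited scale no rise of Orc4 passed in any comparison. Among firing factors, Topbp1 fell by 0.45 to 0.55 and Mtbp by 0.62 to 0.83, both in all 4 comparisons, and both act in the step that recruits Cdc45. The Mtbp call in FL Mut was lost in 4 of 6 cases of leaving out 1 library (adjusted p up to 0.0976, without E11.5 FL Mut replicate 2) and in HL WT in 2 of 6 (up to 0.0910, without E10.5 HL WT replicate 1, limma). In the GINS complex, the partner of Cdc45, Gins1 fell by 0.47 to 0.57 and Gins3 by 0.33 to 0.54, the Gins1 call in HL Mut being lost in 2 of 6 such cases. Gins2 was called only in FL WT, where it rose by 0.72, and Gins4 was called in none.

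In nucleotide supply, 4 of 6 genes fell in each comparison. Rrm2, the small subunit of ribonucleotide reductase, fell by 0.64 to 1.02, its large subunit Rrm1 by 0.41 to 0.72, and Dut, which removes dUTP from the nucleotide pool, by 0.54 to 0.80. Tyms rose in 2 comparisons and Tk1 was called in none. In fork protection, Tipin fell by 0.37 to 0.66 and Clspn by 0.38 to 0.62 in all 4 comparisons, and Timeless, the partner of Tipin, fell in 3. Without 1 library, the Tipin call was lost in 4 of 6 cases in HL Mut (adjusted p up to 0.157, without E10.5 HL Mut replicate 3) and in 3 of 6 in FL WT (up to 0.124, without E11.5 FL WT replicate 1, limma). The Clspn call was lost in 3 of 6 cases in FL Mut (adjusted p up to 0.0944, without E11.5 FL Mut replicate 1, limma).

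The proteins that load or follow the clamp were mixed. Rfc2, a subunit shared by all clamp loaders, fell by 0.56 to 0.68, and Atad5, which unloads Pcna, by 0.45 to 0.64, its call being lost without 1 library in 2 of 6 cases in FL WT and in 1 of 6 in HL Mut. Rfc1, the large subunit of the main clamp loader, was the gene that rose in all 4 comparisons, by 0.28 to 0.43, and on the deposited scale it turned negative in 3 of them (-0.15, -0.48 and -0.19 in FL WT, HL Mut and HL WT, none of which passed). Its FL Mut call was lost in 1 of 6 cases (adjusted p = 0.0507 without E11.5 FL Mut replicate 3, limma). Of the single-strand binding complex, Rpa2 fell by 0.46 to 0.70, while Rpa1 and Rpa3 each rose in 1 comparison. Dna2, a nuclease of flap processing, fell by 0.47 to 0.61. Mcm8, an MCM paralog outside the hexamer, fell in 3 comparisons.

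**Figure D3:**
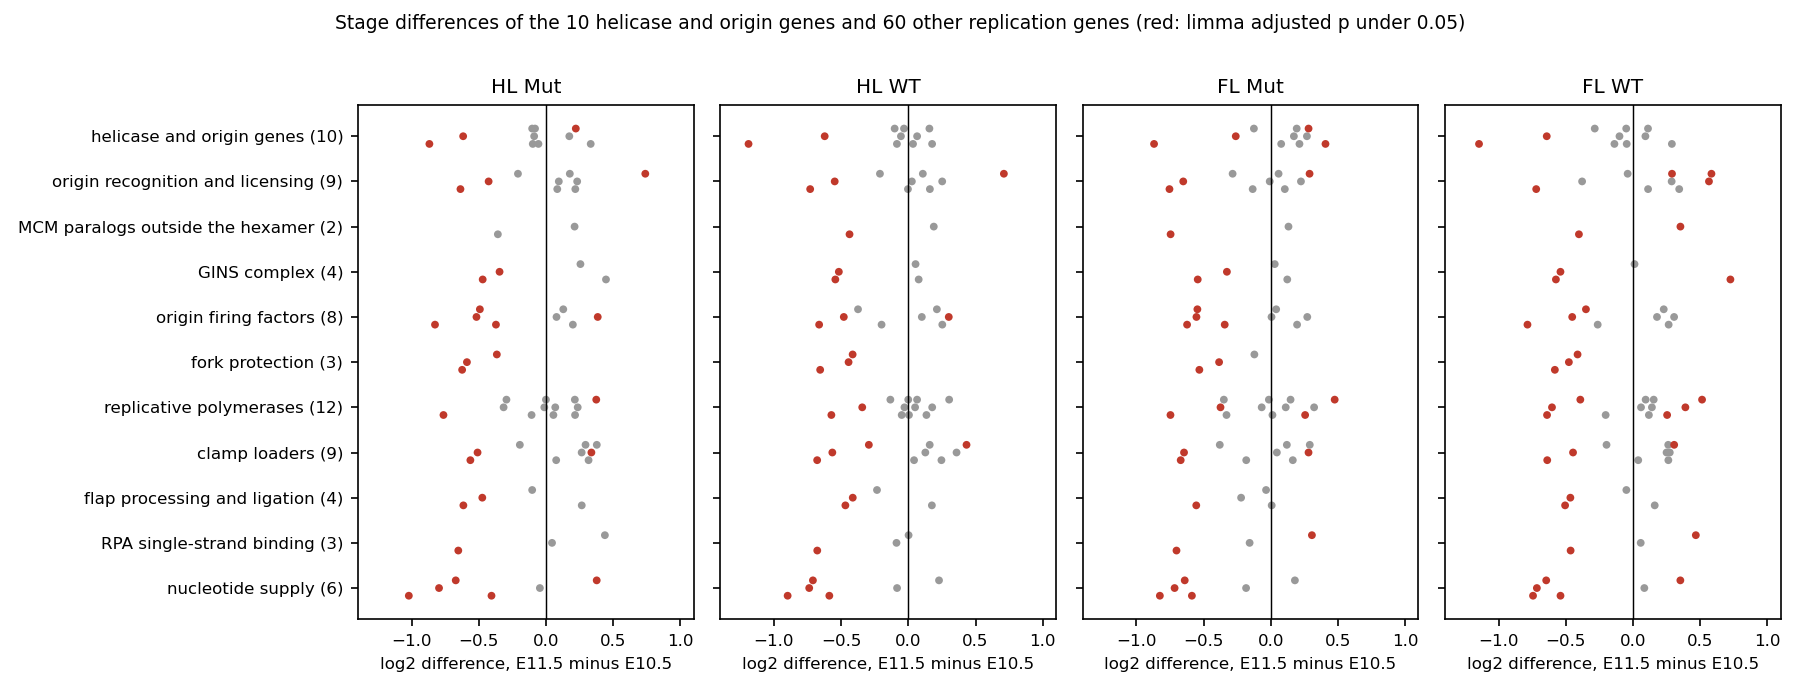
Log2 difference, E11.5 minus E10.5, on rescaled TPM for the 10 helicase and origin genes (top row) and 60 other replication genes by function, 1 panel per limb and genotype; each point is a gene and red points passed an adjusted p under 0.05 (limma). Red points lie on both sides of 0 in every panel, with 21 or 22 of the 60 other genes lower and 3 to 11 higher; on the deposited scale 0 of the 60 were higher in any panel and 0 lower in FL Mut.

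Cell type markers also differed between stages. The summed level of 10 endothelial markers was 24.8 to 44.3 rescaled TPM at E11.5 against 36.9 to 76.9 at E10.5, with 2, 7, 5 and 6 of the 10 lower in FL Mut, HL Mut, FL WT and HL WT, and none of them was at 0 in any library. The summed level of 7 myeloid markers was 4.81 to 15.3 at E11.5 against 2.63 to 5.52 at E10.5, with 4, 0, 1 and 1 of the 4 tested ones higher in FL Mut, HL Mut, FL WT and HL WT. The sum of 10 limb mesenchyme markers was 179 to 265 at E11.5 against 104 to 227 at E10.5. Of 18 mitotic genes, 7 fell and 1 to 4 rose in each comparison, so cell cycle genes outside replication did not move as a block either. These marker and mitotic counts stand against 16.8% to 18.2% of all genes called lower and 18.5% to 23.8% called higher in the 4 comparisons. The part of cell composition in the falls of Cdc6 and Mcm5 was not tested.

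Loss of U11 changed none of the 10 genes past the threshold. Of the 10, 0 were called in each of the 4 comparisons of Mut with WT, against 1.66% of all genes in E11.5 FL, 0.0175% in E11.5 HL, 0.00882% in E10.5 HL and 0.0265% in E10.5 FL (limma). At an unadjusted p under 0.05 there were 5 of 10 in E11.5 FL and 0 of 10 in each of the others, where 22.7% of all genes reached that level in E11.5 FL, 6.19% in E11.5 HL, 5.16% at E10.5 in forelimbs and 1.90% in hindlimbs.

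In E11.5 FL, where Rnu11 was lowest relative to WT, 9 of the 10 genes had higher means in Mut and Pcna a lower one. The median log2 difference of the 10 genes was 0.25, against -0.03 for all genes. Mcm5 was at 27.1, 29.0 and 28.0 rescaled TPM in Mut against 24.2, 20.8 and 24.3 in WT, a log2 difference of 0.27 ± 0.08 (95% interval 0.09 to 0.46, adjusted p = 0.1005, limma). Cdc45 was at 15.4, 17.3 and 17.2 in Mut against 15.3, 12.7 and 13.4 in WT, a difference of 0.25 ± 0.09 (0.06 to 0.45, adjusted p = 0.127, limma). All 3 Mut libraries lay above all 3 WT libraries for both genes, for Cdc45 by a small margin, and this was so in one or the other direction for 25.8% of all genes.

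Other hexamer genes overlapped between Mut and WT in E11.5 FL. Mcm3 was at 31.3, 40.6 and 40.5 in Mut against 35.5, 25.7 and 28.3 in WT (0.32 ± 0.14, adjusted p = 0.192), and Mcm2 at 28.9, 37.1 and 35.3 in Mut against 32.9, 24.9 and 24.6 in WT (0.29 ± 0.13, adjusted p = 0.219, limma). In both genes Mut replicate 1 was the low Mut library and WT replicate 1 the high WT library, and these 2 libraries alone produced the overlap. Cdc6, Mcm10, Mcm7 and Mcm4 had differences of 0.27, 0.24, 0.22 and 0.14, and Mcm6 of 0.05 (95% interval -0.12 to 0.22), with adjusted p from 0.250 to 0.725 (limma).

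Pcna stood against the other 9 genes in E11.5 FL. It was at 151, 132 and 167 rescaled TPM in Mut against 176, 208 and 179.6 in WT, with no overlap, and the log2 difference was -0.32 ± 0.12 (95% interval -0.59 to -0.06, adjusted p = 0.149, limma). The direction of this difference depended on the scale, being 0.20 on the deposited values, where the median of all genes was 0.39. Pcna lay below that median on either scale, which is no separate check, as the rescaling shifts all genes of a library nearly alike.

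The scale of the libraries moved with genotype in E11.5 FL. The rescaling factor was 0.820 to 1.08 in Mut against 1.11 to 1.44 in WT, and the share of TPM on nuclear protein-coding genes was 18.0% to 22.9% in Mut against 14.7% to 17.3% in WT. On the deposited scale 8 of the 10 genes (all except Mcm4 and Pcna) were called higher in Mut, together with 3691 of all genes, while 42 of all genes were called lower. On the rescaled values 51 of all genes were called higher and 138 lower. Relative to the median of all genes, 9 of the 10 were higher on either scale. As the factor shifts all genes of a library nearly alike, this agreement of the scales was close to fixed in advance. The summed level of 10 endothelial markers was 32.2 to 39.1 in Mut against 25.4 to 29.6 in WT, with 0 of 10 past the threshold and none at 0, and that of 7 myeloid markers was 6.04 to 15.3 against 4.94 to 7.75, with 0 of the 4 that were tested past the threshold. The part of scale and of cell composition in the E11.5 FL values was not tested.

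The sex-linked transcripts were not balanced between genotypes. Xist is made from the inactive X chromosome of females and Ddx3y from the Y chromosome. Of the 12 Mut libraries, 6 had Ddx3y at 7.62 to 15.1 rescaled TPM with Xist at 0.197 or less, 5 had Xist at 14.5 to 28.6 with Ddx3y at 0.0291 or less, and 1 had both (8.03 for Xist and 6.49 for Ddx3y). All 12 WT libraries had Ddx3y at 7.90 to 17.2 with Xist at 1.32 or less. The libraries with high Xist alone were replicate 3 of E11.5 FL Mut, E11.5 HL Mut and E10.5 HL Mut, and replicate 1 of E10.5 FL Mut and E10.5 HL Mut, and E10.5 FL Mut replicate 3 had both transcripts. The part of sex in the genotype values was not tested. In E11.5 FL 0 of the 10 genes were called with all libraries and 0 without each library in turn, among them E11.5 FL Mut replicate 3. As none was called to begin with, that count does not bear on sex.

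The same comparison in the other groups gave smaller values. In E11.5 HL the median of the 10 genes was 0.00, and the largest values were those of Cdc6 (0.23 ± 0.15, 95% interval -0.10 to 0.56) and Pcna (0.22 ± 0.12, -0.05 to 0.48), with adjusted p of 0.750 or more for all 10 (limma). Pcna was at 200.3, 216 and 221 rescaled TPM in E11.5 HL Mut against 200.3, 159 and 190.1 in WT, and its lowest Mut library and highest WT library were almost level. Neither Pcna nor Mcm10 overlapped between these groups, as in 11.7% of all genes. At E10.5 the differences lay between -0.17 and 0.09 in forelimbs and between -0.11 and 0.11 in hindlimbs, with adjusted p of 0.940 or more (limma). The intervals at E10.5 were wide, reaching from -0.52 to 0.46 in FL and from -0.38 to 0.43 in HL, so changes of that size were not excluded by these data.

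**Figure D4:**
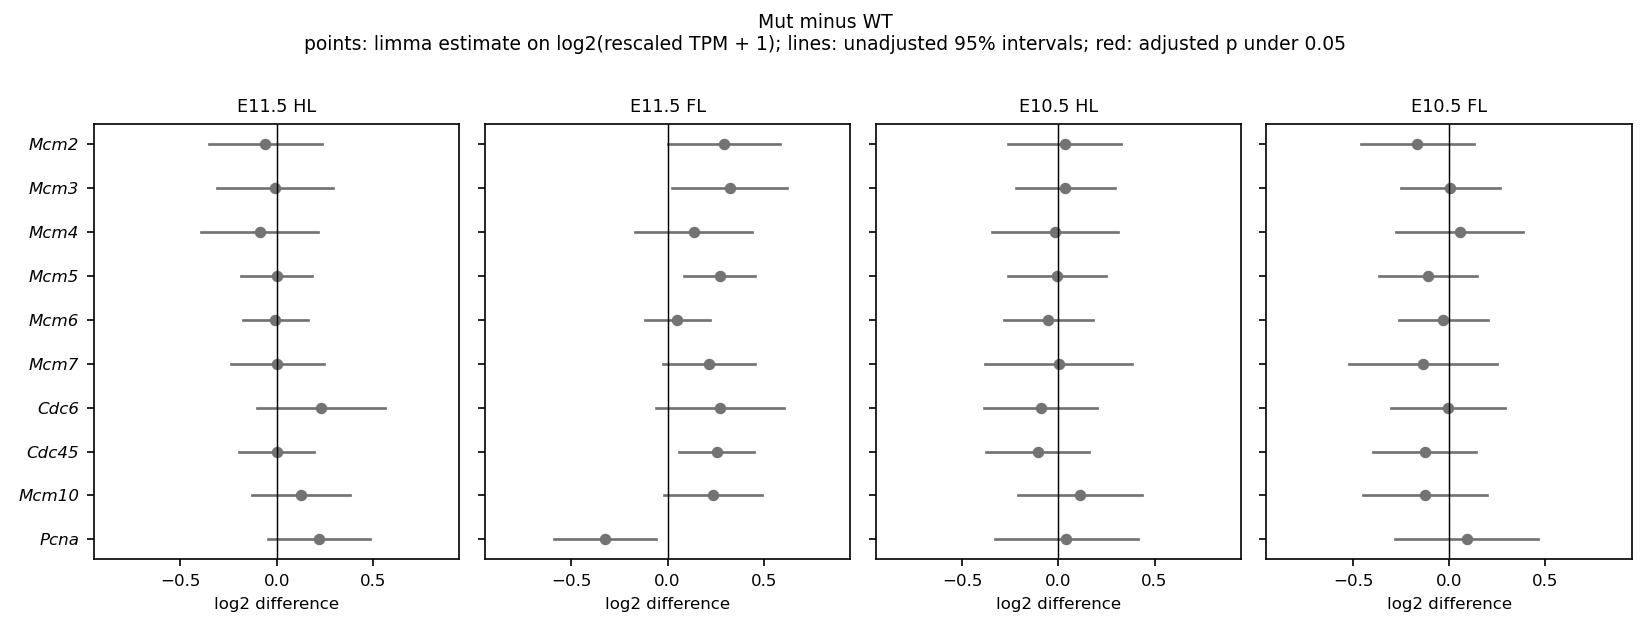
Log2 difference, Mut minus WT, of each of the 10 genes on rescaled TPM in the 4 combinations of stage and limb; points are limma estimates with 95% intervals. None passed an adjusted p under 0.05; in E11.5 FL 9 genes lie right of 0 and Pcna at -0.32, which is 0.20 on the deposited scale.

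Whether the effect of genotype differed between limbs or stages was tested directly. The effect in HL minus that in FL at E11.5 was 0.54 ± 0.17 for Pcna (95% interval 0.17 to 0.92, adjusted p = 0.339, and -0.06 on the deposited scale) and -0.27 ± 0.12 for Mcm5 (-0.53 to -0.01, adjusted p = 0.367, limma). At E10.5 the adjusted p was 0.999 for all 10. The effect at E11.5 minus that at E10.5 in FL was 0.46 ± 0.19 for Mcm2 (adjusted p = 0.322), 0.38 ± 0.14 for Cdc45 (adjusted p = 0.283) and -0.41 ± 0.20 for Pcna (adjusted p = 0.407, limma), and on the deposited scale the last was 0.31. None of the 10 passed in any of these 4 tests, as against 0.0175% of all genes for limbs at E11.5, 0% at E10.5, 0.066% for stages in FL and 0.00825% in HL. At an unadjusted p under 0.05 there were 2 of the 10 genes for limbs at E11.5, 3 for stages in FL and 0 in the other 2 tests, where 13.4% of all genes reached that level for limbs at E11.5, 12.7% for stages in FL, 2.51% for limbs at E10.5 and 2.53% for stages in HL.

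Hindlimb and forelimb levels did not differ past the threshold for any of the 10 genes. The count was 0 of 10 in E11.5 Mut, E11.5 WT, E10.5 Mut and E10.5 WT, against 0.377%, 0.149%, 0.0618% and 0.124% of all genes, and at an unadjusted p under 0.05 it was 1, 0, 1 and 0 of 10 (limma), against 16.2%, 6.97%, 6.69% and 9.35% of all genes. The median HL minus FL difference of the 10 genes was -0.10 in E11.5 Mut, 0.12 in E11.5 WT, 0.18 in E10.5 Mut and 0.10 in E10.5 WT. Pcna in E11.5 Mut had the largest difference, with 200.3, 216 and 221 rescaled TPM in HL against 151, 132 and 167 in FL, or 0.50 ± 0.12 (95% interval 0.24 to 0.77, adjusted p = 0.113, limma). The groups did not overlap, as in 21.7% of all genes, and on the deposited scale the value was -0.01 (adjusted p = 0.961, limma). In E10.5 Mut the largest was Mcm2, with 0.31 ± 0.13 (0.02 to 0.60, adjusted p = 0.727, limma). The medians of all genes on the deposited scale were -0.44 in E11.5 Mut, 0.06 in E11.5 WT, 0.45 in E10.5 Mut and 0.22 in E10.5 WT, and on that scale 5 of the 10 genes (Mcm2, Mcm3, Mcm5, Mcm6 and Cdc45) were called lower in E11.5 HL Mut than in FL Mut. All genes called there numbered 28 higher and 5112 lower on the deposited scale, against 24 and 19 on the rescaled values.

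Of the 60 other replication genes, 2 fell with loss of U11 in E11.5 FL and 0 in the 3 other comparisons, where 138 of the 11398 genes tested were lower in E11.5 FL and 1.66% were called in either direction. Without any 1 library the count of 2 was 0 or 1. Pole2, a subunit of the leading-strand polymerase, was at 5.92, 6.02 and 7.05 rescaled TPM in Mut against 9.005, 9.65 and 8.56 in WT (-0.46 ± 0.10, adjusted p = 0.0406, limma). Rfc5, a small clamp loader subunit, was at 10.6, 11.7 and 14.2 in Mut against 15.6, 20.9 and 19.4 in WT (-0.57 ± 0.12, adjusted p = 0.0435), and in HL minus FL of E11.5 Mut it rose by 0.68 ± 0.12 (adjusted p = 0.0436, limma). That call in E11.5 Mut was lost in 5 of 6 cases of leaving out 1 library (adjusted p up to 0.214, without E11.5 FL Mut replicate 2), in the fit of all 24 libraries (0.147), without the filter (0.0995), in the fit of the 6 libraries alone (0.103), with the replicate block (0.0759) and on the deposited scale, where the value was 0.20 (adjusted p = 0.343, limma). In Mut minus WT of E11.5 FL, the Pole2 call was lost without each of the 6 libraries in turn and the Rfc5 call in 4 of those 6 cases. Both were also lost in the fit of all 24 libraries (limma adjusted p = 0.0870 for Pole2 and 0.125 for Rfc5). The same held without the filter (0.0950 and 0.103), in the fit of the 6 libraries alone (0.0892 and 0.115) and with the replicate block (0.0689 and 0.0830). On the deposited scale the Mut minus WT values were 0.0041 for Pole2, whose sign thus changed, and -0.08 for Rfc5, which did not pass (adjusted p = 0.712, limma). Both genes lay below the median of all genes on either scale, which is no separate check, as the rescaling shifts all genes of a library nearly alike. Pcna also had a lower mean in E11.5 FL Mut but was not called. Pole2 and Rfc5 were named for their lower calls there, so a shared direction with Pcna is no evidence of a link.

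Within groups, the genes other than Pcna tended to be high in the same libraries, Mcm6 only weakly, and Pcna did not follow. Correlations were taken over the 24 libraries on the deviation of each log2 value from its group mean, which leaves stage, limb and genotype out. They describe these libraries, whose genes share the same rescaling factor and RNA. Pearson's r was 0.94 for Mcm2 with Mcm3, 0.83 for Mcm3 with Mcm4 and 0.82 for Cdc6 with Mcm10, and 34 of the 36 pairs without Pcna were above 0. Those below 0 were Mcm6 with Cdc6 (-0.07) and with Mcm7 (-0.12), and the highest r of Mcm6 was 0.39, with Mcm2. The share of gene pairs above 0 among all genes is not given. Pcna was below 0 with each of the 9 others.

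The deviations followed the scale of the library. The mean deviation of the 9 genes had r = -0.72 with the deviation of the log2 rescaling factor (Spearman's rho -0.69, -0.63 without the 2 farthest libraries, -0.79 within E11.5 and -0.73 within E10.5). Pcna had r = 0.72 with it (rho 0.66, 0.64 without the 2 farthest, 0.43 within E11.5 and 0.85 within E10.5), and r = 0.78 with the mean of 74 ribosomal protein genes. The factor enters the rescaled values on both axes, so these numbers describe the libraries only, and the part of library composition in the differences above was not tested.

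**Figure D5:**
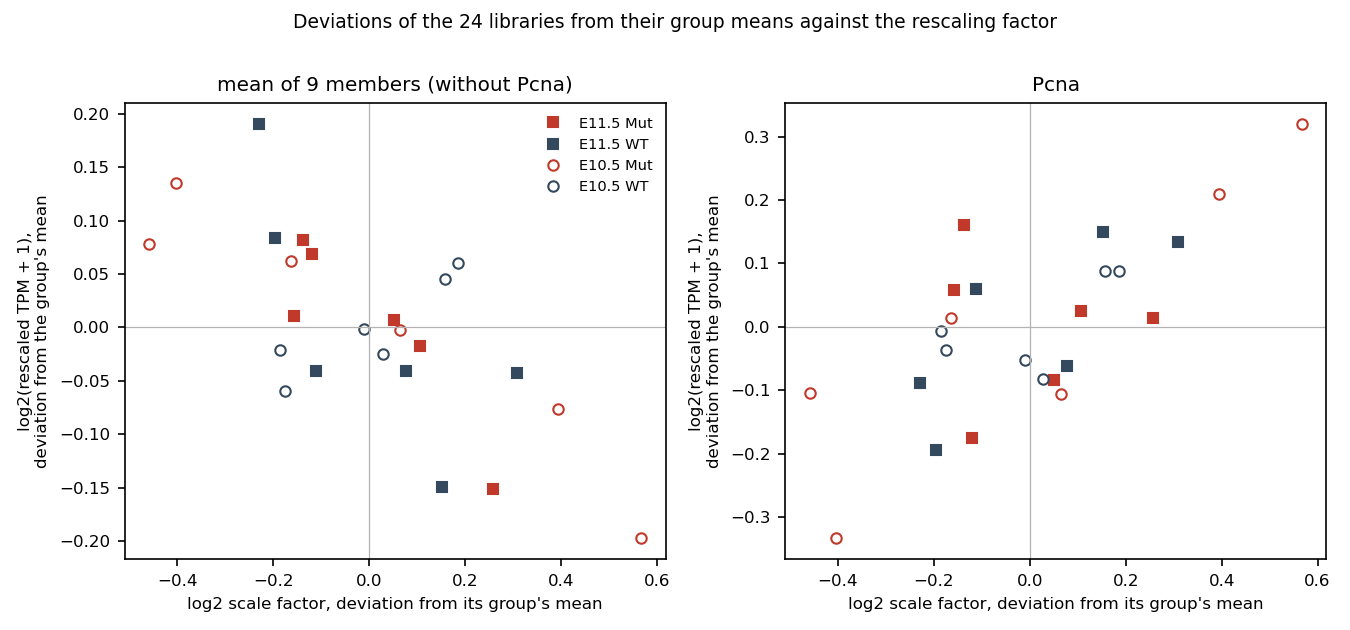
Deviation of each of the 24 libraries from its group mean in log2(rescaled TPM + 1), for the mean of the 9 genes without Pcna and for Pcna, against the deviation of its log2 rescaling factor. The mean of the 9 genes runs downward (r = -0.72) and Pcna upward (r = 0.72).

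The genes outside the replication lists most like the 10 over all 24 libraries were found by Pearson's r with the mean of their standardised log2 values, among 5874 genes averaging at least 5 rescaled TPM. They were Eif3c (r = 0.86), a translation initiation factor subunit, Stip1 (0.85), a co-chaperone, Acly (0.83), the ATP citrate lyase, Gpi1 (0.81), a glycolytic enzyme, Kars (0.81), the lysyl-tRNA synthetase, and Bop1 (0.81), a factor of ribosome assembly. Of the listed replication genes, Pola2 (0.81), Rpa1 (0.76) and Fen1 (0.76) were most alike. These values share the same libraries and scale.

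The loci bear on how firmly single rows can be read. On GRCm38, Mcm5 lies at chr8:75109569-75128439 on the plus strand, Cdc6 at chr11:98907801-98923940 on the plus strand and Mcm6 at chr1:128331590-128359664 on the minus strand, with no gene annotated across them on the other strand. These GENCODE starts differ from the RefSeq starts behind the promoter windows above: the Cdc6 window lies inside the GENCODE locus, downstream of its start, and the Mcm5 window ends before the GENCODE start. Mcm7 (chr5:138164583-138172422, minus strand) is overlapped by Ap4m1 and Cops6 on the opposite strand, and Cdc45 (chr16:18780447-18811987, minus strand) by Ufd1. Whether the counting used strand is not given in the sources used here, so reads from such pairs cannot be told apart. Ufd1, listed as Ufd1l, was at 8.55, 7.96 and 7.26 rescaled TPM in E11.5 FL Mut against 10.7, 10.7 and 10.9 in WT, a fall of 0.40 ± 0.08 (adjusted p = 0.0306, limma), opposite to the direction of Cdc45. The microRNA genes Mir25, Mir93 and Mir106b, which lie inside Mcm7, were listed at 0 in all 24 libraries.

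Pcna (chr2:132249162-132253314, minus strand) has a pseudogene row, Pcna-ps2. That row was at 14.6 to 18.4 rescaled TPM in the 4 E10.5 libraries numbered 1 and at 0.502 to 1.28 in the other 20, and Pcna itself was at 133 to 163 in those 4 against 145 to 210.3 in the other 8 E10.5 libraries. Adding the pseudogene to Pcna, or leaving out the 4 libraries, changed no call of any of the 10 genes in the comparisons run.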

How the data were processed

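Total RNA of 24 limb bud libraries was measured, 3 in each of 8 groups by stage, limb and genotype. The authors deposited 1 TPM value for each gene symbol and library, made from reads aligned with HISAT2 to mm10, per the submitters' processing notes. Which quantifier and annotation were used, and whether strand was counted, is not given in the sources used here. The labels state that 3 nt were trimmed from the 3′ end of E10.5 reads. TPM carry no read depth, so no counting error could be given.

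Each library was multiplied by a factor that equalised its median log2 TPM over the 3518 genes with at least 5 TPM in all 24 libraries. Values were analysed as log2(rescaled TPM + 1), so that differences understate the change of low genes, for genes with at least 1 rescaled TPM in 3 libraries (11336 genes at E10.5, 11398 at E11.5 and 12118 over both). Mut was compared with WT and HL with FL within a stage (12 libraries, 8 residual degrees of freedom), and E11.5 with E10.5 over all 24 libraries (16 residual degrees of freedom), with limma 3.58.1 (trend) in R 4.3.3, two-sided, Benjamini-Hochberg adjusted over all genes tested, at a threshold of 0.05. The fit was tested on simulated data with independent noise for each gene. That simulation held no shift shared by the genes of a library, so it does not bear on the dependence on scale. Replicates of a group correlated at 0.959 to 0.989 over 24 pairs, none identical. All 10 symbols matched GENCODE M21 for loci, and promoter windows came from RefSeq. Python 3.11.15 with pandas 2.3.3 and matplotlib 3.10.9 was used for joins and figures.

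The 10 genes and the lists were chosen with earlier results of these data known. Named genes were the 10 in every comparison, up to 3 called genes per replication list and comparison by adjusted p, the 6 most alike genes outside these lists, and Rnu11. One gene of the replication lists is not reported here by name. Gins4, Tyms and Tk1, the genes near the 10 loci, the pseudogene, the limb markers and the most alike replication genes were named after their values were seen. Alternatives were the deposited scale, rescaling within a stage, a pseudocount of 0.1, no filter, other sets of libraries in the fit, a replicate block and leaving out each library. Leaving out the 4 E10.5 libraries numbered 1 and adding the Pcna pseudogene to Pcna were chosen after seeing the data.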

Additional observations from a re-analysis of the deposited data

How the results depend on the processing

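Of 2460 values of the 10 genes recomputed under the alternatives, 2215 kept their direction and their side of the threshold, 29 lost a call, 22 gained one and 194 changed sign. On the deposited TPM scale the genes called numbered 0 instead of 4 for stage in FL Mut, 10 instead of 3 in HL Mut, 5 instead of 0 for HL against FL in E11.5 Mut, and 8 instead of 0 for Mut against WT in E11.5 FL. The stage count in FL Mut was 1 without the filter and 2 without E10.5 FL Mut replicate 3 and E10.5 FL WT replicate 1. Leaving out 1 library gave 1 to 4 genes for stage in FL Mut, 2 to 3 in HL Mut, 2 to 3 in FL WT and 2 to 3 in HL WT. Calls gained in this way were Mcm3 in FL Mut, Pcna in HL Mut, Mcm10 in FL WT and Mcm6 in HL WT, once each.

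The deposited scale changed the sign of 42 values, 3 of them called on that scale (Cdc45, Mcm6 and Pcna for stage in HL Mut). Values below are log2 differences, E11.5 minus E10.5 for stage. Stage in FL Mut gave 0.12 for Pcna. Stage in FL WT gave -0.35 for Mcm4, -0.38 for Mcm6 and -0.19 for Pcna. Stage in HL Mut gave -0.63 for Cdc45, -0.62 for Mcm6 and -0.52 for Pcna. Stage in HL WT gave -0.55 for Cdc45, -0.60 for Mcm2, -0.47 for Mcm6 and -0.49 for Pcna. E10.5 FL Mut minus WT gave -0.19 for Mcm3, -0.14 for Mcm4 and -0.11 for Pcna. E10.5 HL Mut minus WT gave 0.0058 for Cdc45, 0.024 for Cdc6, 0.0999 for Mcm4, 0.11 for Mcm5 and 0.063 for Mcm6. E11.5 FL Mut minus WT gave 0.20 for Pcna. E11.5 HL Mut minus WT gave -0.077 for Cdc45 and -0.078 for Mcm7. E10.5 Mut HL minus FL gave 0.49 for Cdc45 and 0.52 for Mcm6. E10.5 WT HL minus FL gave 0.17 for Cdc45 and 0.22 for Mcm6. E11.5 Mut HL minus FL gave -0.36 for Cdc6, -0.38 for Mcm10 and -0.011 for Pcna. E11.5 WT HL minus FL gave 0.052 for Pcna. The stage difference of the genotype effect in FL gave 0.31 for Pcna. The stage difference of the genotype effect in HL gave -0.083 for Cdc45, -0.18 for Mcm10, -0.19 for Mcm5, -0.15 for Mcm6, -0.20 for Mcm7 and -0.023 for Pcna. The limb difference of the genotype effect at E10.5 gave 0.21 for Cdc6, 0.24 for Mcm4, 0.29 for Mcm6 and 0.27 for Pcna. The limb difference of the genotype effect at E11.5 gave -0.062 for Pcna. Rfc1 had -0.15 in FL WT, -0.48 in HL Mut and -0.19 in HL WT for stage, and Pole2 0.0041 for Mut against WT in E11.5 FL. The cause was not tested.

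Rescaling within the stage changed 5 signs, with a largest size of 0.0080. E10.5 HL Mut minus WT gave 0.0051 for Mcm5. E11.5 HL Mut minus WT gave 4.0e-05 for Mcm3, 0.0080 for Mcm5 and 0.00094 for Mcm6. E11.5 Mut HL minus FL gave 0.0031 for Mcm6. A pseudocount of 0.1 changed 1. E11.5 HL Mut minus WT gave -6.3e-05 for Cdc45.

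Leaving out E10.5 FL Mut replicate 3 and E10.5 FL WT replicate 1 together changed 9. Stage in FL WT gave -0.025 for Mcm4. E10.5 FL Mut minus WT gave 0.10 for Cdc6, 0.072 for Mcm10, -0.066 for Mcm4 and 0.032 for Mcm7. The limb difference of the genotype effect at E10.5 gave -0.079 for Cdc45, 0.049 for Mcm4, -0.031 for Mcm7 and 0.012 for Pcna. Leaving out the 4 E10.5 libraries numbered 1 changed 25. Stage in FL WT gave -0.025 for Mcm4. Stage in HL Mut gave 0.010 for Mcm10 and 0.052 for Mcm2. Stage in HL WT gave -0.014 for Cdc45 and -0.034 for Mcm2. E10.5 FL Mut minus WT gave 0.029 for Cdc6, 0.036 for Mcm10, -0.060 for Mcm3, -0.056 for Mcm4 and 0.013 for Mcm6. E10.5 HL Mut minus WT gave -0.0025 for Mcm10, -0.15 for Mcm2, -0.060 for Mcm3 and -0.044 for Mcm7. E10.5 Mut HL minus FL gave -0.0031 for Cdc6. E10.5 WT HL minus FL gave 0.058 for Cdc45 and 0.016 for Mcm6. The stage difference of the genotype effect in HL gave 0.086 for Mcm2, 0.051 for Mcm3 and 0.031 for Mcm4. The limb difference of the genotype effect at E10.5 gave -0.10 for Cdc45, -0.038 for Mcm10, -0.077 for Mcm5, -0.043 for Mcm7 and 0.0028 for Pcna.

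Leaving out 1 library at a time changed 112 signs, none of them of a value called before or after, and the values then ranged as follows. Stage in FL Mut had -0.00091 to 0.16 for Mcm10. Stage in FL WT had -0.18 to 0.019 for Mcm2, -0.18 to 0.051 for Mcm3 and -0.028 to 0.19 for Mcm4. Stage in HL Mut had -0.19 to 0.010 for Mcm10 and -0.18 to 0.052 for Mcm2. Stage in HL WT had -0.014 to 0.14 for Cdc45, -0.038 to 0.092 for Mcm2, -0.15 to 0.059 for Mcm4 and -0.21 to 0.019 for Mcm7. E10.5 FL Mut minus WT had -0.063 to 0.059 for Cdc6, -0.21 to 0.016 for Mcm10, -0.046 to 0.058 for Mcm3, -0.083 to 0.13 for Mcm4 and -0.014 to 0.14 for Pcna. E10.5 HL Mut minus WT had -0.18 to 0.046 for Cdc6, -0.076 to 0.16 for Mcm2, -0.046 to 0.14 for Mcm3, -0.11 to 0.12 for Mcm4, -0.096 to 0.070 for Mcm5, -0.11 to 0.032 for Mcm6, -0.13 to 0.15 for Mcm7 and -0.12 to 0.21 for Pcna. E11.5 HL Mut minus WT had -0.062 to 0.047 for Cdc45, -0.13 to 0.014 for Mcm2, -0.080 to 0.063 for Mcm3, -0.18 to 0.026 for Mcm4, -0.045 to 0.060 for Mcm5, -0.023 to 0.022 for Mcm6 and -0.056 to 0.066 for Mcm7. E10.5 Mut HL minus FL had -0.10 to 0.0044 for Cdc45, -0.012 to 0.22 for Cdc6 and -0.12 to 0.21 for Pcna. E10.5 WT HL minus FL had -0.16 to 0.00080 for Cdc45, -0.049 to 0.17 for Mcm10, -0.12 to 0.027 for Mcm6 and -0.043 to 0.19 for Mcm7. E11.5 Mut HL minus FL had -0.065 to 0.20 for Cdc6 and -0.061 to 0.042 for Mcm6. E11.5 WT HL minus FL had -0.027 to 0.26 for Cdc6, -0.015 to 0.24 for Mcm4 and -0.11 to 0.058 for Pcna. The stage difference of the genotype effect in HL had -0.091 to 0.11 for Mcm10, -0.21 to 0.017 for Mcm2, -0.15 to 0.038 for Mcm3, -0.21 to 0.043 for Mcm4, -0.071 to 0.095 for Mcm5, -0.039 to 0.11 for Mcm6 and -0.14 to 0.13 for Mcm7. The limb difference of the genotype effect at E10.5 had -0.059 to 0.10 for Cdc45, -0.18 to 0.052 for Cdc6, -0.052 to 0.13 for Mcm3, -0.16 to 0.065 for Mcm4, -0.084 to 0.062 for Mcm6 and -0.21 to 0.12 for Pcna. The limb difference of the genotype effect at E11.5 had -0.19 to 0.11 for Cdc6.

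Same-numbered libraries correlated at -0.27 to 0.37 in their deviations, and no comparison had all pairs above 0.1, so the numbers were not taken to pair samples. Xist, however, was high in FL and HL Mut libraries of the same number. In rescaled TPM it was 28.6 and 24.4 in number 1 and 8.03 and 14.5 in number 3 at E10.5. At E11.5 it was 25.9 and 24.9 in number 3. Whether same-numbered limbs share an embryo is thus not settled, and the main fits took no account of it. The replicate block gave each number an effect shared by Mut and WT. It thus does not model limbs of the same embryo, and HL minus FL was not tested as paired. With the replicate block, no value of the 10 genes changed its call, Pole2 and Rfc5 had limma adjusted p of 0.0689 and 0.0830 in E11.5 FL, and 95 instead of 189 of all genes were called there. That count of 189 was 65 in a fit of all 24 libraries, 59 without the filter, 36 in a fit of the 6 libraries compared, 3733 on the deposited scale, and 27 to 385 without 1 library. For stage it was 1020 instead of 4403 in FL Mut and 2723 instead of 4851 in FL WT on the deposited scale. Unknown depth limits what can be said of Cdc6, the lowest of the 10 genes at E11.5.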
